A study of Mus musculus with 4 samples.

Results

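Stimulation can change the transcripts of an axon and those of its cell body differently. The measure described here is the axon response minus the cell body response of each gene in mouse dorsal root ganglion (DRG) neurons, stimulated electrically for 2 h or left unstimulated. For each of 4 nylon membrane arrays the log10 intensity of every spot was turned into a z-score over all spots of that array. The axon response is the z-score in stimulated axons minus that in unstimulated axons, the cell body response is the same subtraction in cell bodies, and the response difference is the axon response minus the cell body response. A positive response difference therefore means that the transcript read higher in axons after stimulation, relative to its course in the cell bodies, and a negative one the reverse. A gene's value is the mean over the spots that name it alone. All 4 arrays of the series enter each value, and 6284 genes have one, from 8496 of 9600 spots, since 1083 spots are unnamed and 21 name several genes.

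The sensory neurons came from NIH Swiss mouse embryos at day 13.5 and had spent 3 weeks in compartmented chambers, in which axons cross under a barrier and can be harvested apart from the cell bodies. All 4 conditions share a strain, an age, an antimitotic (fluorodeoxyuridine) that limits non-neuronal cells, and a night without serum or nerve growth factor. Axons and cell bodies were each taken from stimulated and from unstimulated chambers, which makes 4 conditions. Each condition is 1 pooled sample (3 coverslips by the labels) of amplified RNA on 1 array, so there are no replicates, and no p-value is given for any value here. The arrays carry human cDNA clones, so the mouse RNA is read under human gene symbols. Which mouse transcript bound a given clone was not tested, so a gene name here stands for the reading of its clones. In pooled samples like these, fewer cells of a type and less RNA per cell cannot be told apart.

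Sensory axons extend far from the nucleus and hold a store of messenger RNAs, ribosomes and RNA-binding proteins. Transcripts are carried there along microtubules by motor proteins, are translated on the spot and are degraded there, so that the axonal pool can change by routes other than transcription. Electrical activity is known to act on both, on transcription in the nucleus and on translation and decay in the processes.

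Readings are given here as raw intensities, which are not adjusted between arrays. The median spot read 89.3 in unstimulated and 103 in stimulated axons, and 160 in unstimulated and 118 in stimulated cell bodies. A lower raw reading in stimulated cell bodies is therefore not by itself a negative response. Of the 23 sensory neuron markers listed for this purpose, 8 were on the arrays and 7 of these read above 25 on all 4. The neurofilament NEFM read 260 in unstimulated and 270 in stimulated axons, and 361 and 411 in the cell bodies. GAP43, a protein of growing axons, read 107 and 126 in axons and 170 and 121 in cell bodies. The neuronal markers' median z-score was −0.35 and −0.39 in unstimulated and stimulated axons and −0.19 and −0.18 in cell bodies. Markers of other cells were read as well. The Schwann cell transcription factor SOX10 was at 681 and 967 in axons and 1008 and 1006 in cell bodies, the fibroblast and matrix gene FN1 at 9268 and 10815 in axons, and the macrophage gene C1QB at 13392 and 16465. These genes were chosen after their values were seen, and the marker sets as wholes were dimmer. Median z-scores in unstimulated and stimulated axons were −0.20 and −0.21 for glial and −0.33 and −0.27 for fibroblast markers. They were 0.10 and 0.02 for macrophage and −1.65 and −0.92 for endothelial markers. In cell bodies these medians lay between −1.43 and 0.09. The genes named here for other cell types thus showed signal in axons, and SOX10 in cell bodies too. The median response difference was 0.01 over the 8 neuronal markers, 0.09 over 8 of 14 glial and 0.06 over 9 of 14 fibroblast markers. It was −0.05 over 7 of 11 macrophage and 0.20 over 3 of 8 endothelial markers. Single markers lay further out, from −0.32 to 0.86 among fibroblast and from −0.90 to 0.28 among macrophage markers. At 0.5 or more in size were 2 fibroblast markers and 1 macrophage marker, and no neuronal, glial or endothelial one. Above 25 on all 4 arrays were 6 glial, 6 fibroblast, 6 macrophage and 1 endothelial markers. The part of other cells in the differences described below was not tested.

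Over all 6284 genes the response difference had a median of −0.003 and an SD of 0.299, and 49.3% of the genes lay above 0. The middle of the distribution ran from −0.15 at the lower quartile to 0.12 at the upper. The axon responses were more spread out (SD 0.233) than the cell body responses (SD 0.193), and the correlation between them was 0.02 across genes, which share 4 arrays and are not independent. Between clones of the same gene the correlation was itself only 0.07 for the axon response and 0.12 for the cell body response.

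At 1 z-score unit or more in size, 46 genes stood higher in the axon response (0.732% of the genes) and 24 lower (0.382%), and not a single one of these 70 genes was read clearly on every array. A gene is called clear here when every clone of it read above 25 on all 4 arrays, and 5361 of the 6284 genes were. Empty places, which hold no named clone, had a median of 11.8 and a 95th percentile of 21.9 in unstimulated axons. In stimulated axons these were 23.0 and 42.5, and on both cell body arrays 10 and 10. The floor of 25 thus lies within the background of the stimulated axon array, and a clear reading there can be no brighter than an empty place. In 61 of the 70 genes a clone read 10 or less on some array, where 10 is the value at which many empty places of the cell body arrays stand. PSMC6, a proteasome ATPase, had the highest response difference at 3.13, and read 0.19 in unstimulated axons, 10 in both stimulated samples and 90.2 in unstimulated cell bodies. CNOT1, the scaffold of the deadenylase complex that shortens poly(A) tails, stood at 2.89 with 10 and 42.5 in unstimulated and stimulated axons against 59.0 and 0.59 in the cell bodies. At the other end KPNB1, the nuclear import receptor importin beta, stood at −2.71 with 21.8 and 2.36 in axons and 3.04 and 13.9 in cell bodies. Such values rest on readings at or under the background, and their size cannot be read as a measured difference.

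Where 1 very low reading sets the value, the sign follows from the array that holds it, since the difference is built from these readings. In the 46 higher genes the lowest reading was in unstimulated axons in 29 and in stimulated cell bodies in 17. In the 24 lower genes it was in stimulated axons in 11 and in unstimulated cell bodies in 13. The 1 bright exception among the higher genes was LRP3, a receptor related to that of low-density lipoprotein, which read 1321 in stimulated axons, 1783 in unstimulated and 1980 in stimulated cell bodies, but 14.9 in unstimulated axons. Its difference of 2.55 rests on that single reading. Just inside and outside the threshold of 1 lay ZC3H12A at 1.004 and NDC1 at 0.992, and on the other side HOXB9 at −1.08 and TCEA2 at −0.98.

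**Figure D1:**
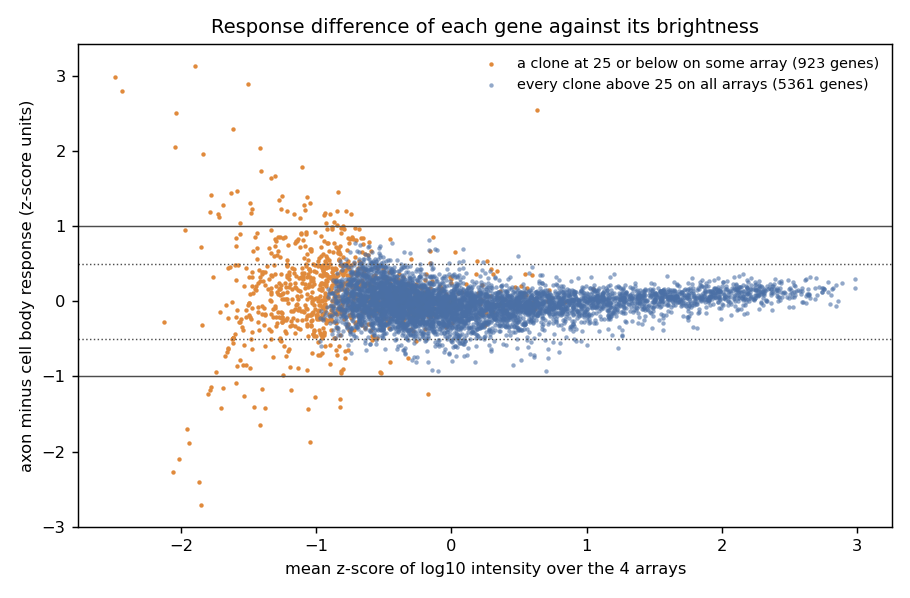
Response difference of each of 6284 genes (vertical axis, z-score units) against its mean z-score over the 4 arrays (horizontal axis). Solid lines mark 1 and −1 and dotted lines 0.5 and −0.5, and all 70 genes beyond the solid lines are orange, that is with a clone at 25 or below on some array.

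The spread of the response difference shrank with brightness. Over 5 equal classes of genes by mean z-score, from dimmest to brightest, its SD was 0.505, 0.241, 0.224, 0.205 and 0.140. The median moved as well, from 0.07 in the dimmest class through 0.02, −0.06 and −0.06 to 0.04 in the brightest. The 384 spots at places 25 and 50 of each row, which hold no named clone, had a median response difference of −0.07. Shifts of this size between groups of genes are therefore found in brightness classes and in empty places too. The same empty places had a median axon response of 0.21 and a median cell body response of 0.29. Single responses of that size in dim genes are thus also found where no named clone lies.

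The clones of a gene give the only measure of error. Over 3640 pairs of clones of the same gene, the SD of a single clone's response difference was 0.295, and the correlation between clones was 0.04. Among 2963 pairs of clones above 25 on all arrays it was 0.202, with a correlation of 0.09. The SD over clear genes was 0.210, so clones of one gene differed from each other almost as much as different genes did. Of the pairs within clear genes, 53.5% had the same sign. An error of 0.20 for a gene with 1 clone, 0.14 for 2, 0.12 for 3 and 0.10 for 4 follows from that SD, and it covers clone and spot only, not culture or array. Of all genes, clear or not, 4796 rest on a single clone, and the error of 0.20 applies only to the clear ones among them. Over all clones the SD was 0.295, so 0.20 is too small for genes that are not clear. The clone SD was not computed by brightness. The SD over clear genes was 0.251 in their dimmest class by mean z-score and 0.134 in the brightest, so 1 error may not suit all.

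Among the 5361 clear genes, 58 had a response difference of 0.5 or more (1.08%) and 103 one of −0.5 or less (1.92%), a threshold set after the data had been seen. The split depends on the scale. With robust z-scores it was 934 higher and 214 lower and with intensities raised to at least 25 it was 144 and 93. Requiring every clone above 50, an alternative added after the data had been seen, left 13 higher and 79 lower. Among clear genes above the array mean the difference between the sides was larger, with 5 higher and 52 lower, and among the dimmer clear genes it was 53 and 51. CDK20 at 0.50 and SNAPC5 at −0.50 lay just inside the threshold, GEMIN7 and ARL11 just outside.

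The 2 sides differed in the median size of the responses behind them. Over all clear genes the axon responses were the more spread out, with an SD of 0.176 against 0.120, which favours differences led by the axons. In the 103 lower genes the axon response made up most of the difference, the medians being −0.50 for axons and 0.11 for cell bodies, and the axon response was the larger of the pair in 98. In 53 of them the axon response was 0.5 or more in size and the cell body response under 0.25. That class does not mean still cell bodies, as C4A and NDUFA10 are in it with cell body responses of 0.15 and 0.19. A cell body response under 0.25 is also common, given that SD. In the 58 higher genes both compartments contributed, the medians being 0.33 for axons and −0.26 for cell bodies. The axon response was the larger of the pair in 40 of these too. By the same limits 4 of them responded in axons alone and 4 in cell bodies alone. The 2 responses had opposite signs in 57 of the 58 higher and 82 of the 103 lower genes, which the subtraction favours. The share over all clear genes is not given, and nothing is read from these 2 counts.

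No clear gene had responses of 0.5 or more in size in both compartments. At 0.3 in size, 6 clear genes had a positive axon and a negative cell body response. The most extreme was CBX3, a heterochromatin protein, which read 50.5 in unstimulated and 144 in stimulated axons but 275 and 118 in the cell bodies (response difference 0.82). POP7, a subunit of the RNase P and MRP ribonucleoproteins, stood at 0.78, SSX5 at 0.69, the calcium-binding channel partner and repressor KCNIP3 at 0.68, CLUAP1, a protein of cilia, at 0.67 and the retinoid receptor RXRG at 0.61. The 4 clear genes of the reverse kind included HLA-E, a class I histocompatibility antigen, at −0.92, the phosphatase inhibitor PPP1R14B at −0.69 and MLYCD, the malonyl-CoA decarboxylase, at −0.64. HLA-E read 185 in unstimulated and 87.2 in stimulated axons and 113 and 156 in cell bodies. Another 15 clear genes were lower in both compartments by 0.3 or more and 1, TMEM243, was higher in both.

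**Figure D2:**
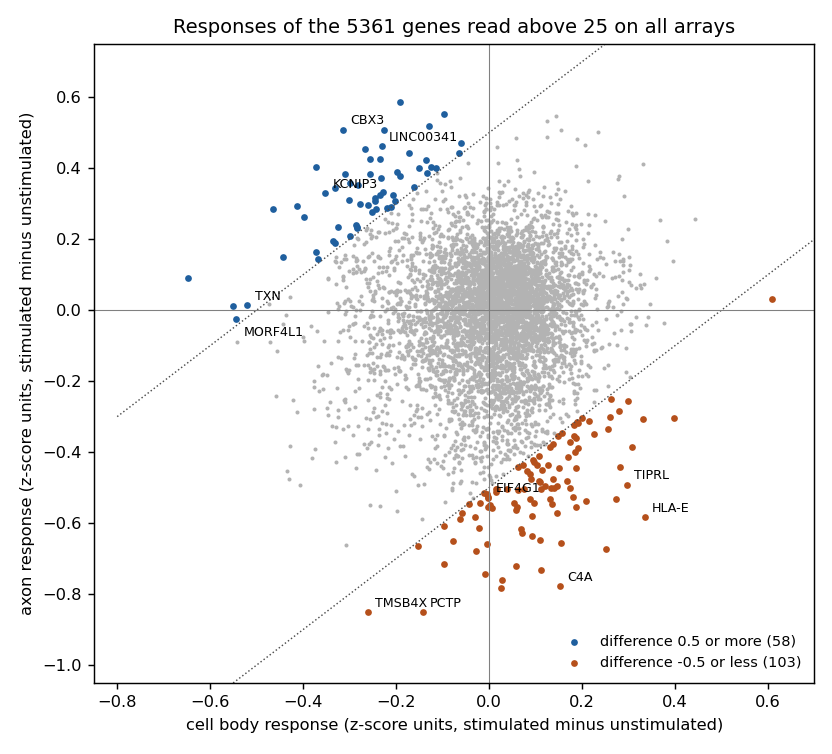
Axon response (vertical axis) against cell body response (horizontal axis), both in z-score units, for the 5361 clear genes. The dotted lines mark response differences of 0.5 and −0.5, with 58 genes above the upper line in blue and 103 below the lower line in orange, and the lower genes spread mostly downward, along the axon axis.

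The following genes are the 12 lowest and 12 highest of the 2622 clear genes whose mean z-score lay above 0. The lowest was C4A, a component of the complement cascade that also marks synapses for removal. It read 428 in unstimulated and 142 in stimulated axons, and 1267 in unstimulated and 1547 in stimulated cell bodies, a response difference of −0.93 ± 0.20 (1 clone). Once each array is centred on its median, the axon ratio was 5.70-fold lower than the cell body ratio. Both axon readings lay under both cell body readings, and stimulation went with a wider gap.

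RGS16, which speeds the shut-off of G-protein signals, showed the same course. It read 363 and 133 in unstimulated and stimulated axons against 806 and 786 in cell bodies, at −0.78. CLIP2, a linker protein of microtubule plus ends, read 195 and 67.0 in axons and 507 and 444 in cell bodies, at −0.81. In both genes the cell body readings hardly differed, and the axon response of −0.72 and −0.78 was nearly the whole difference. MGC2889, an entry without a known product, was alike at −0.70, with 439 and 185 in axons and 766 and 762 in cell bodies. The calcium channel TRPV6, at −0.84, read 303 and 110.3 in axons and 753 and 809 in cell bodies, but its spot lies beside a brighter spot of RPL19 with a response difference of −0.78.

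Another 5 of the low genes crossed over, so that axons read above cell bodies in z-scores before stimulation and below them after it. Before stimulation axons were above by only 0.01 in UBE2R2 and 0.08 in PCTP. They were above by 0.19 in C2orf74-DT, 0.23 in NDUFA10 and 0.53 in CBFA2T2. No error is given for these gaps, and the smallest may not be real crossings. NDUFA10, a subunit of mitochondrial complex I, read 523 and 246 in axons and 594 and 722 in cell bodies, at −0.74. CBFA2T2, a transcriptional corepressor, read 688 and 311 in axons and 471 and 517 in cell bodies, at −0.72. PCTP, a carrier of phosphatidylcholine between membranes, read 262 and 79.3 in axons and 372 and 228 in cell bodies, at −0.71. Its cell body response was itself negative at −0.14, so that both compartments went down and the axons further. The long noncoding transcript C2orf74-DT stood at −0.76 and the ubiquitin-conjugating enzyme UBE2R2 at −0.73. UBE2R2 read 197 and 85.2 in axons, and 2 of its neighbouring spots were brighter and at −0.41 (RAB7A) and −0.72 (unnamed).

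In the 2 remaining low genes axons stayed above the cell bodies. TIPRL, a regulator of the type 2A phosphatases, read 416 in unstimulated and 218 in stimulated axons but 76.1 and 93.8 in cell bodies, at −0.79. LYRM2, a mitochondrial protein with an LYR motif, read 413 and 234 in axons and 83.5 and 101 in cell bodies, at −0.72. Both thus read higher in axons than in cell bodies on these arrays. After stimulation they read lower in axons and somewhat higher in cell bodies. Each rests on 1 clone and on 1 array a condition.

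At the other end the highest value was that of the long noncoding RNA LINC00341, at 0.69 ± 0.20 (1 clone). It read 79.9 in unstimulated and 206 in stimulated axons against 396 and 207 in cell bodies. The transcription elongation factor ELOF1 read 193 and 413 in axons and 726 and 399 in cell bodies, at 0.60. For these genes the ratio in axons was 3.19-fold and 2.51-fold higher than that in cell bodies after median centring. The axon reading and the cell body reading moved towards each other and ended within 0.13 z-score units.

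In 8 of the 12 highest genes the z-score gap between axons and cell bodies changed sign, in 3 it narrowed and in 1 it widened. Among those 8 the gap after stimulation ran from 0.002 in SNX2 to 0.22 in RAB6A. Without an error for the gap, the smallest of these may not be real changes of sign. PPIC, a cyclophilin that isomerizes prolines, read 95.7 and 160 in axons and 459 and 198 in cell bodies, at 0.53. PIGS, part of the transamidase that attaches glycolipid anchors to proteins, was at 0.39 and 0.65 in its 2 clones, which read 163 and 113 in unstimulated axons and 230.3 and 246 in stimulated axons. P3H2, which hydroxylates prolines in collagen, read 103 and 221 in axons and 295 and 194 in cell bodies, at 0.45. RAB6A, a GTPase of transport at the Golgi, read 112 and 226 in axons and 257 and 160 in cell bodies, at 0.43. GOLGA2, a golgin, had clones at 0.08 and 0.69, of which the first was much the brighter, so its mean of 0.38 rests on the dim clone. SNX2, a sorting nexin of endosomes, stood at 0.37 with 163 and 217 in axons and 504 and 231 in cell bodies.

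MORF4L1, a chromatin protein of acetyltransferase complexes, differed from the others in that its axon response was not positive. Its 2 clones read 525 and 149 in unstimulated and 660.2 and 121 in stimulated axons, while the cell bodies went from 1556 to 777 and from 1197 to 247. The response difference of 0.45 ± 0.14 thus came from the cell bodies. SMCO4, a small membrane protein, stood at 0.53, NDRG4, a brain-expressed member of the NDRG family, at 0.42 and ECPAS, a scaffold of the proteasome, at 0.40. ECPAS was the only one of the 12 in which axons read above cell bodies in z-scores without stimulation.

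**Figure D3:**
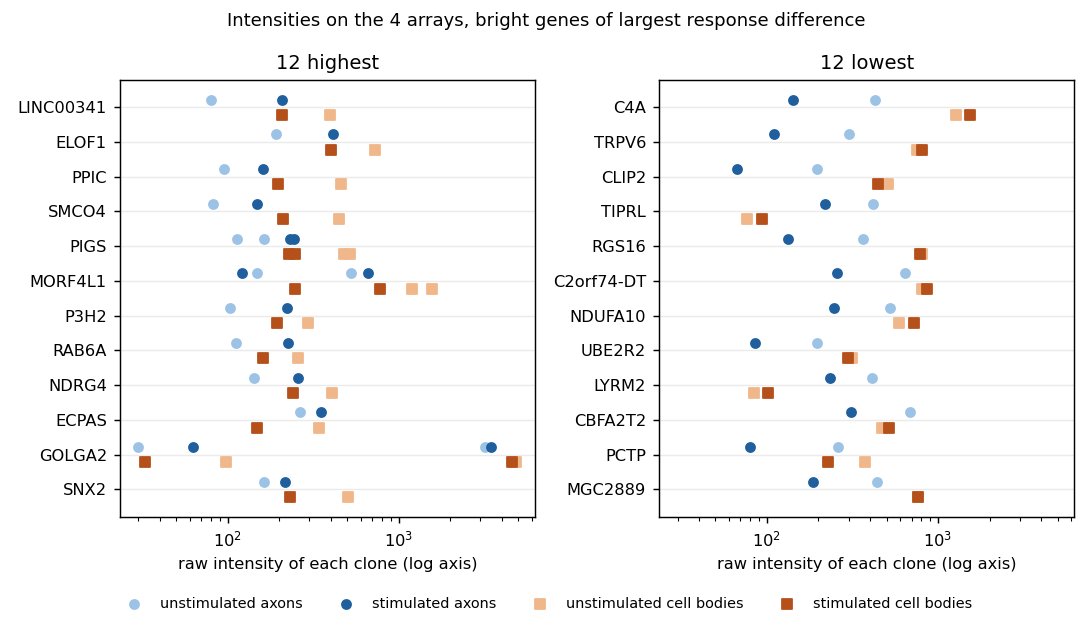
Raw intensity of each clone (horizontal log axis) on the 4 arrays for the 12 highest and 12 lowest bright genes by response difference. Circles are axons, squares cell bodies, light symbols unstimulated and dark symbols stimulated, and in most genes of the left panel axons read higher and cell bodies lower with stimulation, while in the right panel the circles move left.

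The gap between compartments, the z-score in axons minus that in cell bodies, was followed over the larger sets too. Its course is partly fixed by the choice of genes, because the gap uses the same 4 readings. All 58 higher genes read below cell bodies in unstimulated axons, with a median gap of −0.43, and 10 did so after stimulation, with a median of 0.14. Of the 103 lower genes 48 read below cell bodies in unstimulated axons (median gap 0.02) and 86 in stimulated axons (median −0.57). Over all 5361 clear genes, the count below was 2952 without and 3002 with stimulation.

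A bright neighbour on the membrane can add signal to a spot. Of the 24 genes, 13 had a spot beside, above or below one of their clones that was at least 2 times as bright on all 4 arrays. In 2 of these, TRPV6 and UBE2R2, such a neighbour had a response difference of the same sign and of 0.4 or more in size. For the bright neighbours of the other 11 it was smaller or of the other sign. The spot next to C4A, of RGS19, read 9150 and 12050 in axons and was at 0.17.

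Genes with several clones carry a smaller error from clone spread. Of 294 clear genes with 3 or more clones, 69 (23.5%) had all clones on one side of 0, 29 above and 40 below. Nothing is read from that share, as 53.5% of clone pairs had the same sign. The 8 most extreme on each side are described here, chosen for that agreement of sign. The lowest was DFFA, the inhibitor of the nuclease that cuts DNA in apoptosis, at −0.50 ± 0.12 with clones at −0.85, −0.20 and −0.46. In the same order its clones read 133, 520 and 544 in unstimulated axons and 58.6, 335 and 364 in stimulated axons. PCLAF, a partner of the replication clamp, was at −0.43, and BUD23, an rRNA methyltransferase, at −0.36 with clones at −0.51, −0.41 and −0.15.

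PLIN3, a coat protein of lipid droplets, was at −0.36 ± 0.10 over 4 clones, which read 198, 357, 324 and 336 in unstimulated and 142, 206, 213 and 339 in stimulated axons. In its cell bodies all 4 clones had responses between 0.03 and 0.09. KIAA1191 stood at −0.35, ECI1, an enzyme of fatty acid oxidation, at −0.32, ACKR2, a chemokine scavenging receptor, at −0.31 and the ribosomal protein RPL41 at −0.29. RPL41 had 2 bright clones, at 2636 and 2034 in unstimulated and 1790 and 1684 in stimulated axons, with response differences of −0.37 and −0.17, and a dimmer one at −0.34. In these genes the axon response was the larger part of the difference, except in ECI1, whose responses were −0.15 in axons and 0.17 in cell bodies.

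The highest of the genes with several clones was EIF4A2, the RNA helicase that unwinds messages for translation, at 0.34 ± 0.10 over 4 clones at 0.76, 0.29, 0.27 and 0.05. The clones read 248, 211, 855 and 990.1 in unstimulated cell bodies and 26.0, 83.1, 307 and 898 in stimulated cell bodies. In axons the same clones read 47.5, 57.5, 91.5 and 487 without and 39.1, 66.1, 83.3 and 614 with stimulation. The difference of EIF4A2 therefore lay in the cell bodies, and the brightest clone hardly shared it.

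Ubiquitin genes were among the others. UBE2V2, a partner of the enzyme that builds lysine-linked ubiquitin chains, was at 0.32 and UBB, a polyubiquitin gene, at 0.24 with clones at 0.26, 0.20 and 0.27. In that order UBB read 54.1, 198 and 56.1 in unstimulated and 81.0, 312 and 88.3 in stimulated axons. HLA-DPB1, a class II histocompatibility antigen, and UQCRH, a subunit of complex III, were both at 0.27, the ribosomal protein RPL14 at 0.24, RTCB, the ligase of tRNA splicing, at 0.23 and APIP, an enzyme of methionine salvage, at 0.22. One RPL14 clone was bright, at 9395 and 13952 in axons and 13844 and 14361 in cell bodies, and stood at 0.31. When only spots above the array mean were used, the value of HLA-DPB1 turned to −0.035, and those of RTCB, APIP and UBE2V2 fell to 0.03, 0.07 and 0.19. With the same setting GOLGA2 was at 0.04, DFFA at −0.25 and ACKR2 at −0.12. RTCB was also at 0.10 with quantile normalization, and APIP at 0.09 with the median over clones.

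**Figure D4:**
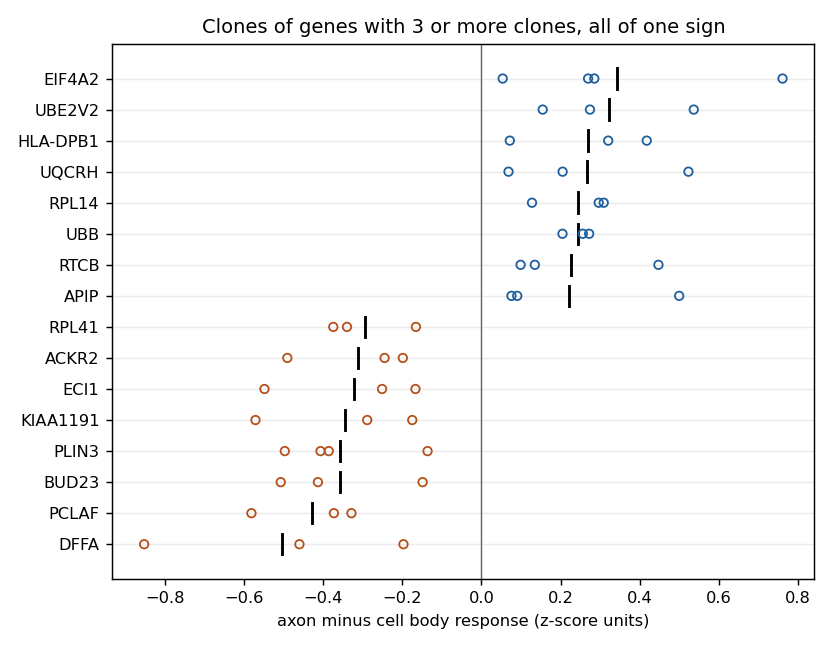
Response difference (horizontal axis, z-score units) of each clone (circles) and its mean (black bar) for the 8 highest and 8 lowest clear genes with 3 or more clones of one sign. UBB has its 3 clones closest together, between 0.20 and 0.27, and EIF4A2 and DFFA are spread the most.

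Gene groups are described by counts and medians, beside 49.3% of all genes above 0 and a median of −0.003. The medians of the 35 lists lay between −0.08 and 0.07. Only those of ion channels, RNA polymerase II and general transcription genes, and 14-3-3 proteins lay outside the range of the medians of the 5 brightness classes. No list is singled out from these values. In the machinery of protein synthesis, 25 of 62 cytosolic ribosomal protein genes were above 0 (median −0.06), and none was at 1 or −1 or beyond. RPS13 was at −0.43 over 2 clones at −0.41 and −0.46, RPL10A at −0.40 and RPL35 at −0.39. Of 55 mitochondrial ribosomal proteins 22 were above 0 (median −0.06), the clear ones from MRPS7 at −0.44 to MRPL53 at 0.44. Both medians kept their side of the all-gene median under all 13 alternatives that recompute values, of which 2 cannot change a sign. With robust z-scores both were above 0, at 0.08 and 0.07, where the median of all genes was 0.13.

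Translation initiation and elongation factors stood on both sides, with 21 of 46 above 0 and a median of −0.03 that changed sides under 4 of 13 alternatives. EIF4G1, the scaffold of the cap-binding complex, read 701 and 338 in axons but 1707 and 1594 in cell bodies, at −0.53. EIF3I, a subunit of initiation factor 3, was at −0.44 over 2 clones, and EIF1B at 0.41. EIF4G1 and EIF4A2, which bind each other in the same initiation complex, thus had values of opposite sign, from a response in axons for EIF4G1 and in cell bodies for EIF4A2.

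Factors of messenger RNA decay, stability and transport were above 0 in 26 of 44 genes (median 0.06). DCPS, the scavenger enzyme that degrades the released cap, read 205 and 77.9 in axons and 422 and 287 in cell bodies, at −0.62. BTG1, an antiproliferative partner of the deadenylase complex, was at 0.48 and LSM5, of the LSM ring, at −0.34. Among 70 splicing factors, 30 of them above 0 (median −0.02), SNRPD1, a core protein of the spliceosome, was at 0.66, RBM26 at 0.56 and PRPF8, a protein at the spliceosome's core, at −0.58. SNRPD1 read 50.7 and 126 in axons and 142 and 66.3 in cell bodies.

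In protein breakdown, 18 of 26 proteasome subunits (median 0.06) and 29 of 47 genes of ubiquitin conjugation and removal (median 0.06) were above 0. The proteasome median lay below that of all genes when only genes with 2 or more clones were used. PSMB2 read 41.5 and 100.2 in axons and 88.2 and 49.8 in cell bodies, at 0.51. PSMA7, another subunit of the catalytic core, was at 0.48 and PSMD11, of the regulatory lid, at 0.43 over clones at 0.26 and 0.61. Of 37 lysosomal genes 19 were above 0 (median 0.00), the clear ones from IDS, which degrades heparan and dermatan sulfate, at −0.63 to the peptidase TPP1 at 0.46.

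Energy metabolism was evenly divided. Of 65 respiratory chain and ATP synthase genes 36 were above 0 (median 0.01), with COX7B at 0.51 and COX6A1 at 0.43 opposite NDUFA10. Of 16 glycolytic enzymes 9 were above 0, the clear ones from PGAM2 at −0.30 to ALDOC at 0.27, while GPI, which was not clear, was at −1.14. The redox enzymes had 26 of 61 above 0 (median −0.05), and TXN, thioredoxin, stood at 0.53 through its cell body readings, 99.4 without and 25.9 with stimulation, while its axon readings were 26.5 and 35.4.

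In the cytoskeleton the largest values were of tubulin-related and thymosin genes. TUBD1, delta-tubulin, read 295 and 148 in axons and 61.2 and 70.5 in cell bodies, at −0.80. MAPRE3, which binds growing microtubule ends, was at 0.64, opposite to CLIP2 of the same plus ends. TMSB4X, which binds actin monomers and is a known axonal transcript, read 269 and 113 in unstimulated and 98.4 and 29.6 in stimulated axons in its 2 clones, at −0.59 ± 0.14. It also read lower in stimulated cell bodies, at 269 and 199 against 645 and 335. In stimulated axons its dimmer clone lay within the range of empty places. Over the groups, 23 of 50 actin genes (median −0.02) and 22 of 42 tubulin and neurofilament genes (median 0.02) were above 0.

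Transport genes were 24 of 39 above 0 among motors (median 0.05) and 12 of 36 among RAB GTPases (median −0.05). DYNC1H1, the heavy chain of dynein that drives transport towards the cell body, was at 0.40, the myosin light chain MYL12B at 0.52 and MYL10 at −0.47. RAB29 was at −0.53 and RAB8A at −0.30, opposite to RAB6A. The RAB median lay above that of all genes with log2 ratios. Of 38 synaptic vesicle and SNARE genes 21 were above 0 (median 0.02), among them SYNGR1, a synaptic vesicle protein, which read 695 and 348 in axons and 1852 and 2023 in cell bodies, at −0.58.

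Among the genes of excitability, 10 of 33 ion channels and partners were above 0 (median −0.08), the lowest median of all lists, which lay above that of all genes when only genes with 2 or more clones were used. KCNIP3 read 63.1 and 134 in axons and 266 and 105 in cell bodies, at 0.68, and the potassium channel subunit KCNG1 was at −0.56. Of 71 genes of calcium, PKA and PKC signalling 34 were above 0 (median −0.01). G-protein signalling had 29 of 47 above 0 (median 0.04), with RGS2 at 0.43 and RGS16 at −0.78, so that 2 regulators of the same kind lay at opposite ends. The 14-3-3 proteins, adaptors that hold phosphorylated partners, were divided as well (4 of 6 above 0, median 0.07), with YWHAZ at −0.55 and YWHAE at 0.44 over 2 clones. YWHAZ read 90.2 and 44.0 in axons and 203 and 146 in cell bodies.

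Activity-induced genes, many of which are transcribed within minutes of stimulation in the nucleus, gave no common direction. Of 38 genes 17 were above 0, with a median of −0.04 that changed sides under 6 of 13 alternatives, and no clear one was at 0.5 or more in size. NFIL3 was at 0.44 and RGS2 at 0.43. Of the 40 transcripts listed as reported in axons of sensory neurons or other neurons, 16 were above 0 (median −0.05). Its largest clear values were those of TMSB4X at −0.59 and YWHAZ at −0.55. STMN2, stathmin 2, which regulates microtubules in growing axons, read 31.1 and 56.8 in axons and 99.0 and 42.9 in cell bodies, at 0.47. Of 18 neurotrophin receptor and signalling genes 11 were above 0 (median 0.03), with the kinase RPS6KA5 at 0.35, and of 26 axon growth and guidance genes 12 were (median −0.003), with the semaphorin receptors NRP1 at 0.26 and NRP2 at −0.24.

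Nuclear genes were divided too. Of 116 ZNF zinc finger genes 53 were above 0 (median −0.04), with ZNF670 at 0.68 and ZNF678 at −0.62. Of 61 chromatin readers and modifiers 27 were above 0 (median −0.06), with CBX3 and MORF4L1 on the upper side and ING5 at −0.49 on the lower. Of 56 genes of RNA polymerase II and the general machinery 22 were above 0 (median −0.07), although their 3 largest clear values were positive. These were ELOF1 at 0.60, TAF1D, a factor of RNA polymerase I that the list takes in, at 0.66 and MED4 at 0.53. That median lay under the median of all genes in all 13 alternatives, including those that cannot change a sign. The remaining lists, with medians between −0.02 and 0.04, were solute carriers (60 of 111 above 0), chaperones (30 of 66), cell cycle genes (45 of 86), apoptosis regulators (28 of 44) and collagens, integrins and matrix genes (27 of 48). Their largest clear values in size were, in this order, SLC66A1 at −0.68, PFDN4 at −0.68, CDKN2AIPNL at −0.49, DFFA at −0.50 and LOXL1 at −0.56.

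**Figure D5:**
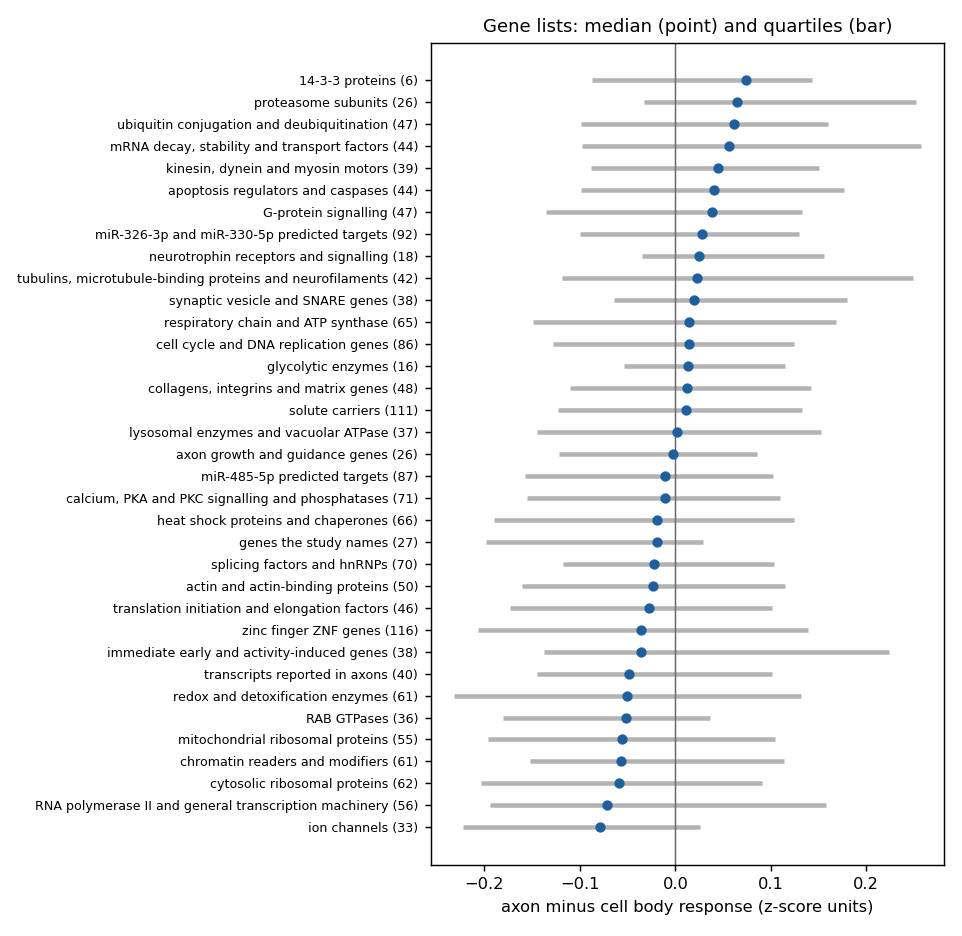
Median (point) and quartiles (bar) of the response difference, in z-score units, over the measured genes of each of 35 lists, with the number of genes in parentheses. The medians lie between −0.08 and 0.07, and every bar extends to both sides of 0.

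The study searched transcripts of other neurons for microRNA seed sites, and its predicted targets of miR-485-5p, miR-326-3p and miR-330-5p are taken here as gene lists. A microRNA pairs through its seed, bases 2 to 8, with sites in messages, which are then repressed or degraded. The mature mouse sequences of the pair with a list in common are shown because their seed, in capitals, is the same (RefSeq, GRCm38.p6).
mmu-miR-326-3p: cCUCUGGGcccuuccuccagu
mmu-miR-330-5p: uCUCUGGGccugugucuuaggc
They are encoded on mouse chromosome 7, at chr7:99552328-99552348 and chr7:19181486-19181507, both on the plus strand. The microRNAs themselves were not measured on these arrays.

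Of 290 distinct gene IDs listed as targets of this shared seed 92 were measured, and 52 of them were above 0 (median 0.03), a median that lay below that of all genes when centred by membrane position. Among its 77 clear members, ELOF1 at 0.60 was the only one at 0.5 or more, and 3 were at −0.5 or less, with UBE2R2 at −0.73 and SCNM1, a splicing factor, at −0.53. Of 245 predicted miR-485-5p targets 87 were measured and 41 were above 0 (median −0.01). There SYNGR1 at −0.58 was the only clear member at 0.5 or more in size, followed by SERTAD3 at 0.43 and KDSR, an enzyme of sphingolipid synthesis, at −0.41. The shares above 0, 56.5% and 47.1%, stand on either side of that over all genes. Over all clear genes 1.08% were at 0.5 or more and 1.92% at −0.5 or less, and nothing is read from counts of 1 to 3 members.

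Of 72 genes that the study names in its text, 27 were measured and 12 of these were above 0 (median −0.02). Among the 22 clear ones only the kinase MARK2, which phosphorylates microtubule-binding proteins, was at 0.5 or more in size. It read 46.9 and 40.2 in axons and 46.1 and 50.6 in cell bodies, at −0.51, on readings not far above 25. The reading in stimulated axons lay within the range of empty places. GNG12, a G-protein subunit, was at −0.41, the kinase PAK4 at −0.29 over 2 clones at −0.17 and −0.42, CSNK2A1, of casein kinase 2, at −0.24 and the cofilin phosphatase SSH2 at −0.21 over 2 clones at −0.20 and −0.22. The other clear ones lay between −0.19, of PLCD3, and 0.14, of the integrin ITGA5. Gamma-actin ACTG1 was at −0.05 over 9 clones, PPP1CA, a catalytic subunit of protein phosphatase 1, at −0.02 over 3 clones and tau (MAPT) at 0.01. The host genes of microRNAs were at 0.71 for ARRB1, whose readings reached down to 21.8, and at 0.00 for NRDC.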

How the data were processed

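The authors deposited raw phosphor imager intensities of 9600 spots on each of 4 arrays, in 2 tables that were compared and differed in 0 values. The handling of background is not stated in the labels or methods. The RNA of each compartment had been amplified and labelled with 33P. From the intensity values, log10 z-scores over all spots of an array, both responses and their difference were computed, and averaged over the clones naming 1 gene in the platform's annotation. With 1 array a condition there was no test. The members, lists and thresholds were chosen with earlier results of these data known. Most lists were taken by symbol prefix, and the microRNA targets from supplementary sheets held whole, matched by gene ID. Genes named are the 12 highest and 12 lowest clear genes above the array mean, the 8 highest and lowest with 3 or more clones of one sign, 3 clear members of largest size per list, and genes the study names. PSMC6, CNOT1, KPNB1, LRP3, genes at a threshold, markers, HLA-E and other genes past 0.3 in both compartments were chosen after their values were seen. Computations used Python 3.11.15, numpy 2.4.6, pandas 2.3.3 and matplotlib 3.10.9, with quantile normalization, loess and normexp run in limma 3.58.1 under R 4.3.3, and were tested on simulated data. Alternatives numbered 15, and another was added after the data had been seen. The number of arrays limits the precision. Other experiments of the study were not analysed here.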

Additional observations from a re-analysis of the deposited data

Results flagged for a closer look

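Of the 24 bright genes of largest response difference, 12 had responses of opposite sign in axons and cell bodies, each at least as large as the SD of a single clone (0.168 in axons, 0.117 in cell bodies). The 24 genes were picked by the axon minus the cell body response, which favours responses of opposite sign. The share over all clear genes is not given, and nothing is read from the count of 12. With 1 array a condition the difference between the compartments was not tested. On the side of the axons these were LINC00341 at 0.69, ELOF1 at 0.60, PPIC at 0.53, SMCO4 at 0.53, PIGS at 0.52, RAB6A at 0.43 and NDRG4 at 0.42. On the other side they were C4A at −0.93, TIPRL at −0.79, NDUFA10 at −0.74, LYRM2 at −0.72 and CBFA2T2 at −0.72.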

How the results depend on the processing

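Counts at a response difference of 1 (46 higher, 24 lower) and of 0.5 among clear genes (58 and 103) moved with the scale and with the treatment of low values. They became 213, 174, 423 and 707 with z ratios at 1.4, which are the same values divided by 1 SD, so that only the threshold is looser. They were 235, 83, 446 and 545 with log2 ratios, and 141, 68, 934 and 214 with robust z-scores, in the same order. The median of all genes shifted to −0.12 on the log2 scale and to 0.13 on the robust one. Normexp gave 1, 0, 27 and 51, and spots above the array mean 2, 1, 37 and 63. A floor at 25 gave 4, 3 and 144 for the first 3 counts, and spots above 25 on all arrays 0 and 0 for the first pair. Genes with 2 or more clones gave 4, 3, 2 and 3, a threshold of 0.75 gave 98, 54, 170 and 268, and one of 1.5 gave 14, 8, 4 and 11. Thresholds of clear genes were always set at a fraction of 0.5 of the other. Requiring every clone above 50, an alternative chosen after seeing the data, left 13 clear higher and 79 clear lower genes. Quantile normalization, loess, centring by position, the median over clones and the second table kept all 4 counts within 1.5 times. Of 147 named genes, 139 kept their sign with robust z-scores and 141 with log2 ratios. The second table and the z ratio cannot change a sign. No paired analysis was possible because each condition has 1 array. Dim spots, where a reading under 25 sets the value, limit what can be read from the largest differences.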
